A study of Tachysurus vachellii with 6 samples.

Results

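The resting miRNA repertoire of vesicles from normoxic catfish liver is described here from 3 of the 6 small RNA libraries of a study on oxygen shortage. The darkbarbel catfish (Tachysurus vachellii, or Pelteobagrus vachellii) is a farmed freshwater fish. The 3 libraries were chosen by their label, normoxia at 4 h, and form 1 group. No other group enters the text, so nothing below is a response to low oxygen. Per the labels, the fish were healthy purchased animals with no allele or agent named, of 11.5 cm and 15 g on average, acclimated and then fasted for 48 h, and the water held 6.8 mg/L dissolved oxygen. Extracellular vesicles were isolated from the liver tissue itself, and their small RNA was ligated to adapters, amplified and sequenced. The labels name the tissue as liver, give no age, and do not say whether a library came from 1 fish or from a pool. Each SD below therefore measures the spread between these 3 libraries, which may be technical.

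MicroRNAs are short RNAs cut from hairpin precursors, and each precursor can give a product from its 5p arm and one from its 3p arm. A mature miRNA guides a silencing protein to messenger RNAs, mainly by pairing through its seed, which is bases 2 to 8. MicroRNAs that share a seed can pair with overlapping sets of messengers, so a miRNA whose start moves by a single base has another seed. Extracellular vesicles carry part of a cell's small RNA out of the cell. In vertebrate liver miR-122 is the hallmark miRNA of hepatocytes.

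The table gave 841 entries after listings of the same sequence were summed. Of these, 793 had counts in at least 1 normoxia library and 567 had counts in all 3, and the 567 held 99.99% of the counts. The library totals were 8497217, 6003250 and 5572737 counts in replicates 1, 2 and 3, and entries with counts numbered 725, 643 and 643. Levels are given as CPM, the count divided by the library total and multiplied by 1000000. Among sequences listed once, whole values below 5 were rare (15 of 1368) and values of exactly 5 were common (107), so a 0 in this table is not evidence of absence. In replicates 1, 2 and 3, 5 counts correspond to 0.588, 0.833 and 0.897 CPM and a limit of 3 counts to 0.353, 0.4997 and 0.538 CPM, and such limits cover counting error only, since no molecular identifiers are mentioned. The libraries are bulk samples, in which fewer vesicles from a cell type and less RNA per vesicle cannot be told apart.

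Families below are set by the number in the name, and grouping by seed is given apart from them. Some of the most abundant sequences are shown first, so that their seeds can be compared. They are given as deposited, 5′ to 3′, in the DNA alphabet (T for U), with the seed in capitals. Names are printed as deposited: the prefix is the species of the matched miRNA (dre is zebrafish, oni Nile tilapia, tni a pufferfish, ssa Atlantic salmon, gmo Atlantic cod, ccr common carp, mmu mouse) and L, R and ss mark differences from it in the ends and in single bases.
tni-miR-122_R-1: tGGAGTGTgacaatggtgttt
oni-let-7e: tGAGGTAGtagattgaatagtt
dre-let-7a: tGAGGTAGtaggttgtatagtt
dre-miR-22a-3p: aAGCTGCCagctgaagaactgt
dre-miR-26a-5p: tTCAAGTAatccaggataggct
dre-miR-26b: tTCAAGTAatccaggataggtt
dre-miR-148_R-1: tCAGTGCAttacagaactttg
dre-miR-152_2ss10GA22GT: tCAGTGCAtaacagaactttgt
dre-miR-146a: tGAGAACTgaattccatagatgg
dre-miR-199-5p: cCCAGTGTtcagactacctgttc
dre-miR-199-3-3p: aCAGTAGTccgcacattggtt
mmu-miR-6240_L-1R-6_1ss19CT: cAAAGCATcgcgaaggctc
dre-miR-100-5p_R-1: aACCCGTAgatccgaacttgt
The let-7 pair shares 1 seed, the miR-26 pair shares another, and miR-148 and miR-152, which carry different family numbers, share a seed of their own. The miR-199 entries are named for opposite arms and have different seeds, and whether they share a precursor was not looked up.

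The repertoire was led by a single sequence. The miR-122 entry tni-miR-122_R-1 stood at 239942, 247591 and 241621 CPM in replicates 1, 2 and 3, or 24.3% ± 0.40 of the counts (SD, n = 3). The second entry, oni-let-7e, stood at 79089, 77089 and 77259 CPM. The first entry thus lay far above the second in every library. It took 6 entries to reach 50% of the counts in each library, the 10 most abundant held 62.0% ± 0.64, and 40, 41 and 40 entries held 90%. Shannon diversity, a log2 measure of how evenly the counts spread over entries, was 5.02 ± 0.01 bits. Above 10 CPM there were 324 entries, above 100 CPM 174, above 1000 CPM 73 and above 10000 CPM 21, and these 21 held 79.5% of the counts.

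**Figure D1:**
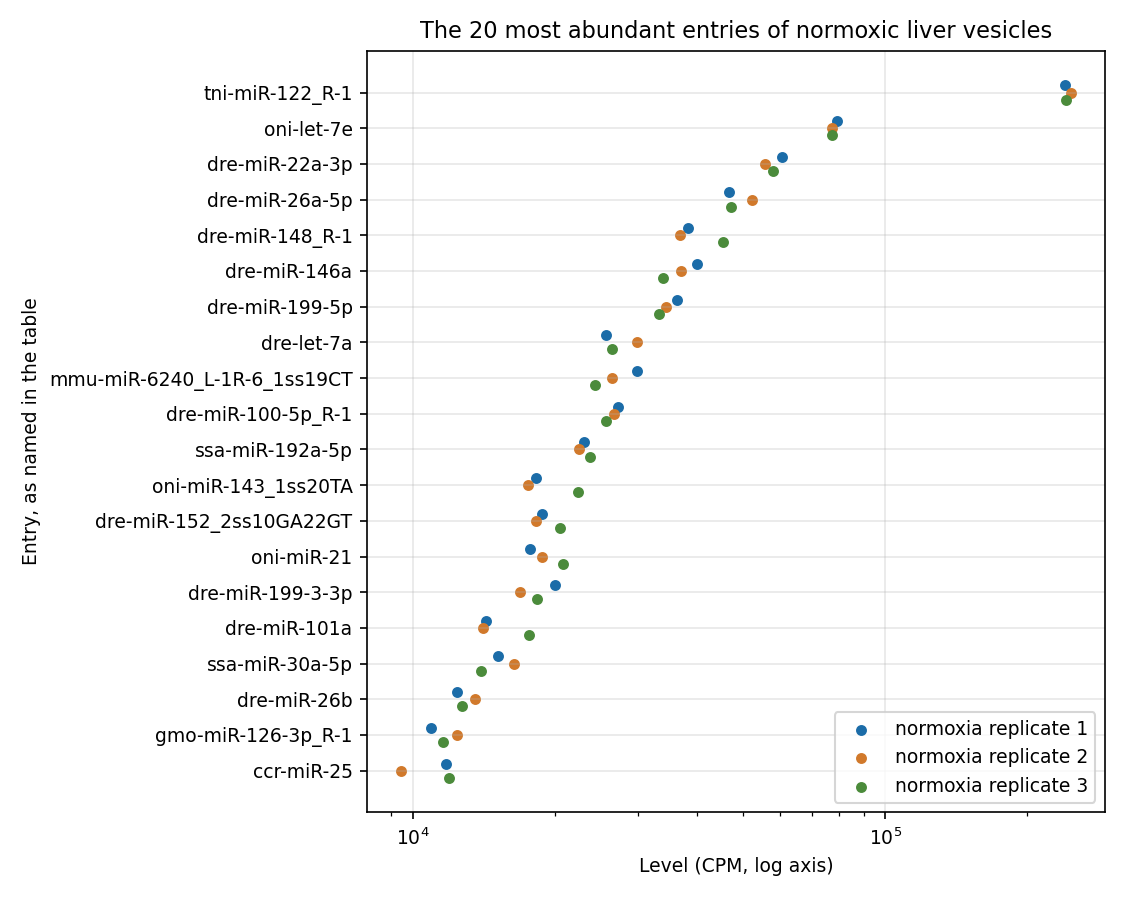
Levels of the 20 most abundant entries, in CPM on a log axis, with 1 point for each of the 3 normoxia libraries. The miR-122 entry stands alone at 239942 to 247591 CPM, and from dre-miR-148_R-1 on the points of neighbouring entries often overlap.

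The entries from rank 3 to rank 8 lay between 25618 and 60564 CPM in every library. The 3p entry dre-miR-22a-3p stood at 60564, 55778 and 57819 CPM, and dre-miR-26a-5p at 46638, 52178 and 47106 CPM. In all 3 libraries dre-miR-22a-3p lay above dre-miR-26a-5p. The rank of dre-miR-26a-5p rests on the summing of its listings: with each sequence at its listed value once it falls to 29093 CPM, below dre-miR-148_R-1 at 48014 and dre-miR-146a at 44144 CPM. Then dre-miR-148_R-1 had 38341, 36810 and 45344 CPM and dre-miR-146a, a regulator of innate immune signalling in mammals, had 39924, 36990 and 33811 CPM. Replicates 1 and 2 placed miR-146a above miR-148, and replicate 3 placed it below, so their order lies within the spread. The 5p entry dre-miR-199-5p had 36232, 34411 and 33192 CPM and lay above dre-let-7a at 25618, 29910 and 26395 CPM in every library. The level of dre-let-7a rests on the summing of 7 listings of 1 sequence, and counted at its listed value once it falls to 0.171 of that level. In the same way dre-miR-199-5p falls to 0.299 of its level, and 20 of the 50 levels named in the text move by over 1.5 times.

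Ranks 9 to 20 lay within a narrower range. The entry mmu-miR-6240_L-1R-6_1ss19CT had 29886, 26427 and 24278 CPM, and dre-miR-100-5p_R-1 had 27162, 26678 and 25659 CPM. The first of these was the higher in replicate 1 only, so the order of this pair was not stable. The hepatic and intestinal miRNA ssa-miR-192a-5p had 23100, 22528 and 23703 CPM. Below it oni-miR-143_1ss20TA, a smooth muscle miRNA in mammals, had 18279, 17539 and 22410 CPM, dre-miR-152_2ss10GA22GT had 18764, 18290 and 20534 CPM, and oni-miR-21 had 17687, 18754 and 20838 CPM. All 3 were highest in replicate 3, and none of them lay above its neighbour in every library. The remaining entries of the first 20 were dre-miR-199-3-3p at 18432 ± 1581 CPM, dre-miR-101a at 15341 ± 1990, ssa-miR-30a-5p at 15190 ± 1223, dre-miR-26b at 12901 ± 587, the endothelial gmo-miR-126-3p_R-1 at 11658 ± 727 and ccr-miR-25 at 11042 ± 1391 (SD, n = 3).

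Some of these levels depend on how reads were divided between near-identical sequences. Among the first 20, dre-miR-26a-5p and dre-miR-26b differ from each other by 1 base at equal length, and so do dre-miR-199-3-3p and oni-miR-199a, which stood at 7819 ± 644 CPM. The sequence oni-let-7e lies 1 base from ssa-let-7f-5p_1ss19TA (8837 ± 286 CPM), and dre-let-7a lies 1 base from 4 other let-7 entries. How reads were assigned to such pairs is not given in these sources. A sum over a family does not depend on how reads were divided among its own members. Some pairs cross family numbers, such as dre-miR-100-5p_R-1 and dre-miR-99_R-1, and there the sums depend on it too. The entries tni-miR-122_R-1, dre-miR-148_R-1, dre-miR-146a, dre-miR-199-5p and gmo-miR-126-3p_R-1 had no entry of equal length 1 base away.

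Summed by family number, 158 families were listed and 156 had counts. The miR-122 family held 24.9%, 25.6% and 25.04% of the counts in replicates 1, 2 and 3. The let-7 family, with 33 entries, held 12.7%, 13.2% and 12.6%, and oni-let-7e made up 60.6% of it. The 10 most abundant families held 74.4% ± 0.73 and the first 15 held 85.4%. The miR-122 family and the let-7 family thus each kept their rank in every library, at 1.52% and 2.11% CV (SD as a percentage of the mean).

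The families miR-22, miR-26 and miR-199 followed at nearly equal levels. The miR-22 family held 6.65%, 6.16% and 6.51% of the counts, the miR-26 family 5.98%, 6.65% and 6.06%, and the miR-199 family 6.38%, 5.95% and 6.04%. Replicate 2 placed miR-26 first of these and the other libraries placed miR-22 first. Next came the miR-148 family at 4.02% ± 0.46, miR-146 at 3.80% ± 0.31, miR-6240 at 3.72% ± 0.28 and miR-30 at 3.41% ± 0.19 (SD, n = 3). The miR-100 family held 2.66% ± 0.08, miR-152 2.46% ± 0.15, miR-192 2.36% ± 0.06, miR-101 2.15% ± 0.21, miR-21 2.04% ± 0.17 and miR-143 1.97% ± 0.26.

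Family shares were sensitive to the summing of listings. With each sequence at its listed value once, the miR-122 family rose in share to 30.1%, while the miR-26 family stood at 3.77%, miR-199 at 3.57%, miR-6240 at 2.44%, miR-30 at 2.22% and miR-100 at 1.59%. These 5 shares moved by over 1.5 times, and of the 25 most abundant families 8 did so. The miR-148 family then ranked 4 and the miR-146 family 5. The first 3 families, miR-122, let-7 and miR-22, kept their order under both treatments.

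**Figure D2:**
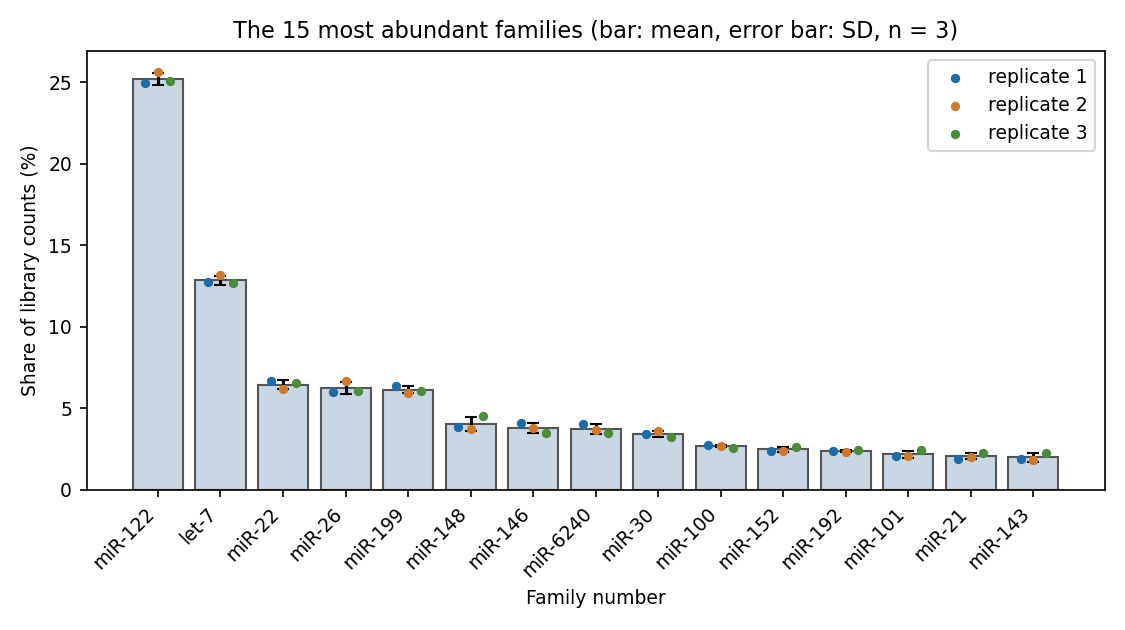
Share of library counts, in percent, held by the 15 most abundant miRNA families. Bars are means, error bars SD and points the 3 normoxia libraries; the miR-122 family holds 25.2% and the let-7 family 12.8%, and the fifteenth, miR-143, 1.97%.

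Grouped by seed in place of family number, 539 seeds were present. The miR-122 seed GGAGTGT held 24.3% ± 0.40 of the counts and the let-7 seed GAGGTAG 12.8% ± 0.27. The seed CAGTGCA, in which miR-148 and miR-152 come together, held 6.14%, 5.96% and 7.09% in replicates 1, 2 and 3. The seed of miR-22, AGCTGCC, held 6.53%, 6.04% and 6.37%, and that of miR-26, TCAAGTA, 5.97%, 6.64% and 6.06%. By mean CAGTGCA ranked 3, but AGCTGCC lay above it in replicates 1 and 2 and TCAAGTA in replicate 2, so the order of these seeds lies within the spread. The miR-199 family divided between CCAGTGT of the 5p arm, at 3.46% ± 0.15, and CAGTAGT of the 3p arm, at 2.66% ± 0.13. Entries of miR-25, miR-92 and miR-363 shared ATTGCAC and reached 2.26% ± 0.21, and entries of miR-17, miR-20, miR-93 and miR-106 shared AAAGTGC and reached 1.18% ± 0.16.

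The label liver was checked against families known from hepatocytes. The hepatocyte list of 7 families held 33.5%, 34.0% and 34.7% of the counts, and 5 of the 7 had counts. Of these, miR-122 carried 252032 ± 3824 CPM, miR-148 40189 ± 4554, miR-192 23592 ± 600, miR-101 21550 ± 2085 and miR-194 3365 ± 203 (SD, n = 3). The numbers miR-215 and miR-885 had no entry in the table. The table holds no protein, so vesicle markers were not analysed here.

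Lists of families typical of other cells held lower shares. The stromal and smooth muscle list (miR-199, miR-214, miR-143 and miR-145) held 8.36% ± 0.31, of which miR-199 alone carried 61229 ± 2264 CPM. The leukocyte list held 4.18% ± 0.33, almost all of it miR-146 at 37972 ± 3102 CPM, while miR-142 of blood cells stood at 2386, 2569 and 2019 CPM and miR-223 of myeloid cells at 165, 116 and 169 CPM. The endothelial miR-126 family held 1.26% ± 0.08, and 0.751% with each sequence at its listed value once. In the stromal and leukocyte lists, as in the hepatocyte list with miR-122, a single family thus held most of the counts, and the other members were lower. By summed listings miR-199 lay above every hepatocyte family but miR-122. With each sequence at its listed value once it held 3.57%, below miR-148 at 4.80%. The erythrocyte list held 0.525% ± 0.055, with miR-451 at 4763, 4051 and 3904 CPM, miR-144 at 987 ± 124 CPM and miR-486 at 18.2, 12.8 and 31.6 CPM. Both miR-451 and miR-144 were highest in replicate 1 and lowest in replicate 3, while miR-486 was highest in replicate 3.

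Families known from muscle, nerve, epithelium, sensory organs and pancreas held under 1% of the counts in each list. The list for skeletal and cardiac muscle held 0.0780% ± 0.0027, with dre-miR-1 at 606 ± 24.2 CPM and miR-208 without an entry. The neural list held 0.616% ± 0.053, and 6012 ± 534 of its CPM came from miR-128, which lies above miR-194 of the hepatocyte list, while miR-124 stood at 82.6 ± 3.0, miR-9 at 18.7 ± 5.0 and miR-138 at 3.75 ± 1.86 CPM. The list for biliary and other epithelium held 0.315% ± 0.016, led by dre-miR-200a-3p_R+1 at 1991 ± 185 CPM. The sensory cluster of miR-96, miR-182 and miR-183 held 0.00155% ± 0.00046, led by dre-miR-182-5p_R+2_1ss10GA at 7.09 ± 2.96 CPM. The pancreas list stood at 2101, 1747 and 1663 CPM in replicates 1, 2 and 3, led by dre-miR-217_R+1 at 835 ± 43.8 CPM.

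Metabolic and oxygen-linked families followed. The list of lipid and glucose miRNAs held 0.425% ± 0.037 of the counts, led by dre-miR-107b at 1740 ± 267 CPM. In it miR-33, which lies in the gene of the sterol regulator SREBP2 in vertebrates, stood at 78.5, 92.4 and 87.6 CPM, and miR-378 at 1.77, 0 and 1.08 CPM. The family miR-210, which mammalian cells induce under low oxygen, stood at 945, 844 and 916 CPM in these normoxic libraries, and its main entry dre-miR-210-3p_R-2 at 795 ± 43.1 CPM. Among numbers known mainly from fish, miR-462 stood at 4695 ± 319 CPM with dre-miR-462_R+1 as its main entry, miR-722 at 3462 ± 308, miR-2188 at 1481 ± 191 and miR-731 at 652 ± 72.4. The number miR-430, which clears maternal messengers in fish embryos, had no entry.

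Clusters and broadly expressed families filled the upper and middle range. The list of miR-21 and miR-22 held 8.48% ± 0.29 of the counts, and that of miR-10, miR-99 and miR-100 held 2.85% ± 0.07, most of it miR-100. The number miR-98, a let-7 relative, had no entry. The miR-17-92 cluster with its paralogs held 3.79%, 3.62% and 3.90% of the counts, with all 9 families present, led by ccr-miR-25. In this list miR-17 stood at 5325, 7034 and 7469 CPM, and miR-363 at 1.18, 0 and 0 CPM. The miR-17 values give a mean share of 0.661%, which becomes 0.396% with each sequence at its listed value once. They include dre-miR-20a-5p_1ss12TC at a mean of 3131 CPM, the 1 entry whose names carry 2 family numbers. Replicate 1 was the lowest for miR-17 and also for miR-20, which leaves that entry out, at 2429, 2770 and 3045 CPM. The list of miR-23, miR-24 and miR-27 was the steadiest of all 21 lists, at 1.54%, 1.53% and 1.53%. With each sequence at its listed value once, 5 of the 21 list shares moved by over 1.5 times: those of the endothelial, muscle, miR-10, miR-125 and miR-30 lists. The main entry of the miR-23, miR-24 and miR-27 list, oni-miR-27b, stood at 4493, 4540 and 4515 CPM. The list of miR-15 and miR-16 held 0.277% ± 0.010, led by ipu-miR-16b at 1211 ± 45.3 CPM, and miR-125 held 0.130% ± 0.011, led by dre-miR-125b-5p at 1151 ± 101.8 CPM.

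Counts on 5p and 3p arms can be compared within each library, since they share the same depth. Arms were summed by family number, which pools different precursors, so the arm use of a single hairpin is not shown. Arms were read from the names and, where a name gave none, from a seed shared with a named arm of the same family. On this basis 65.4% ± 1.2 of the counts lay on 5p arms, 21.8% ± 0.58 on 3p arms and 12.9% ± 0.67 on none, so that 74.6%, 76.0% and 74.5% of the assigned counts were 5p. With the arm taken from names only the 5p share was 59.3%, and without the miR-122 family it was 65.5%. The majority of counts on 5p arms held in each of these settings, and its size did not.

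By these arm labels 66 families had counts on both arms, and 48 of them had at least 100 CPM and held 88.2% of the counts. The sequences do not always bear out the labels. In miR-1983, which is among the 48, the main p5 and p3 entries are the same stretch with starts 1 base apart. In miR-1285, below 100 CPM, a p5 and a p3 entry share their start. The tallies below follow the labels. The 5p arm was the larger in 25 and the 3p arm in 23, and the larger arm was the same in all 3 libraries in 46. The smaller arm made up under 1% of the family in 17, under 5% in 31 and over 20% in 7, with a median of 2.54%. Between libraries the 5p share had a median SD of 0.369 percentage points. Counted by family, the arms were used about equally often, while counted by reads the 5p arm prevailed.

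Strongly 5p families were miR-100, miR-26, miR-17, miR-16, miR-10 and miR-122. The miR-100 family had 27259, 26776 and 25731 CPM on its 5p arm and 1.06, 0.9995 and 1.26 CPM on its 3p arm. In the miR-26 family the 5p share was 99.9% in each library, and in the miR-122 family it was 99.5%, 99.6% and 99.5%, with 1209, 1093 and 1162 CPM on the 3p arm. The miR-122 value depends on the seed rule, since its main entry carries no arm in its name: by names only, the 5p share of this family was 7.72%.

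Strongly 3p families were miR-128, miR-23, miR-200, miR-133, miR-19 and miR-27. The miR-128 family had 6503, 6090 and 5443 CPM on the 3p arm, and its 5p arm had counts in replicate 1 only, at 0.941 CPM. The miR-23 family had 8562, 8301 and 8484 CPM on the 3p arm and 3.06, 3.00 and 4.13 CPM on the 5p arm. In the other 4 families the mean 5p share lay between 0.306% (miR-200) and 0.543% (miR-27). The miR-27 share was 1.96% by names only.

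Balanced families were fewer. The miR-199 family had 36258, 34434 and 33213 CPM on the 5p arm and 27530, 25049 and 27205 CPM on the 3p arm, a 5p share of 56.8%, 57.9% and 55.0%. Its 5p arm was the larger in every library. The miR-1388 family had a 5p share of 49.8%, 46.8% and 50.7%, and the miR-222 family 41.8%, 42.0% and 50.9%. In both the arm with more counts changed between libraries, for miR-1388 by no more than counting error allows. For miR-222 replicate 3 stood apart, with 1115, 1106 and 1295 CPM on the 5p arm and 1554, 1528 and 1250 CPM on the 3p arm. The exact 95% binomial interval of the miR-222 share, which covers counting error only, was 50.1% to 51.7% in replicate 3 and 41.1% to 42.4% in replicate 1. For miR-1388 the interval was 48.2% to 51.4% in replicate 1 and 48.6% to 52.7% in replicate 3, and both include 50%. In replicate 2 it was 44.8% to 48.8%. By names only, the share was 99.9% for miR-1388 and 97.0% for miR-222, since their main 3p entries, ipu-miR-1388_1ss23AT and oni-miR-222_R-1, carry no arm in the name.

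The other near-balanced families leaned to the 3p arm. The 5p share was 39.6% ± 1.5 for miR-130, 37.3% ± 2.0 for miR-29 and 34.4% ± 0.75 for miR-6240 (SD, n = 3). The miR-130 share was 51.6% by names only, and its main 5p and 3p entries, oni-miR-130b-5p_1ss9CT and dre-miR-130c-3p, carry different letters. In the miR-6240 family 26938 CPM, most of it the leading entry, could not be assigned to an arm. Looked at after their values were seen, miR-126 had 743, 772 and 1157 CPM on its 5p arm and 10967, 12414 and 11615 CPM on its 3p arm, and miR-142 had 2068, 2248 and 1642 CPM on its 5p arm and 318, 321 and 378 CPM on its 3p arm. The 5p share was thus 6.34%, 5.85% and 9.06% for miR-126 and 86.7%, 87.5% and 81.3% for miR-142, and replicate 3 lay apart from the others in both.

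**Figure D3:**
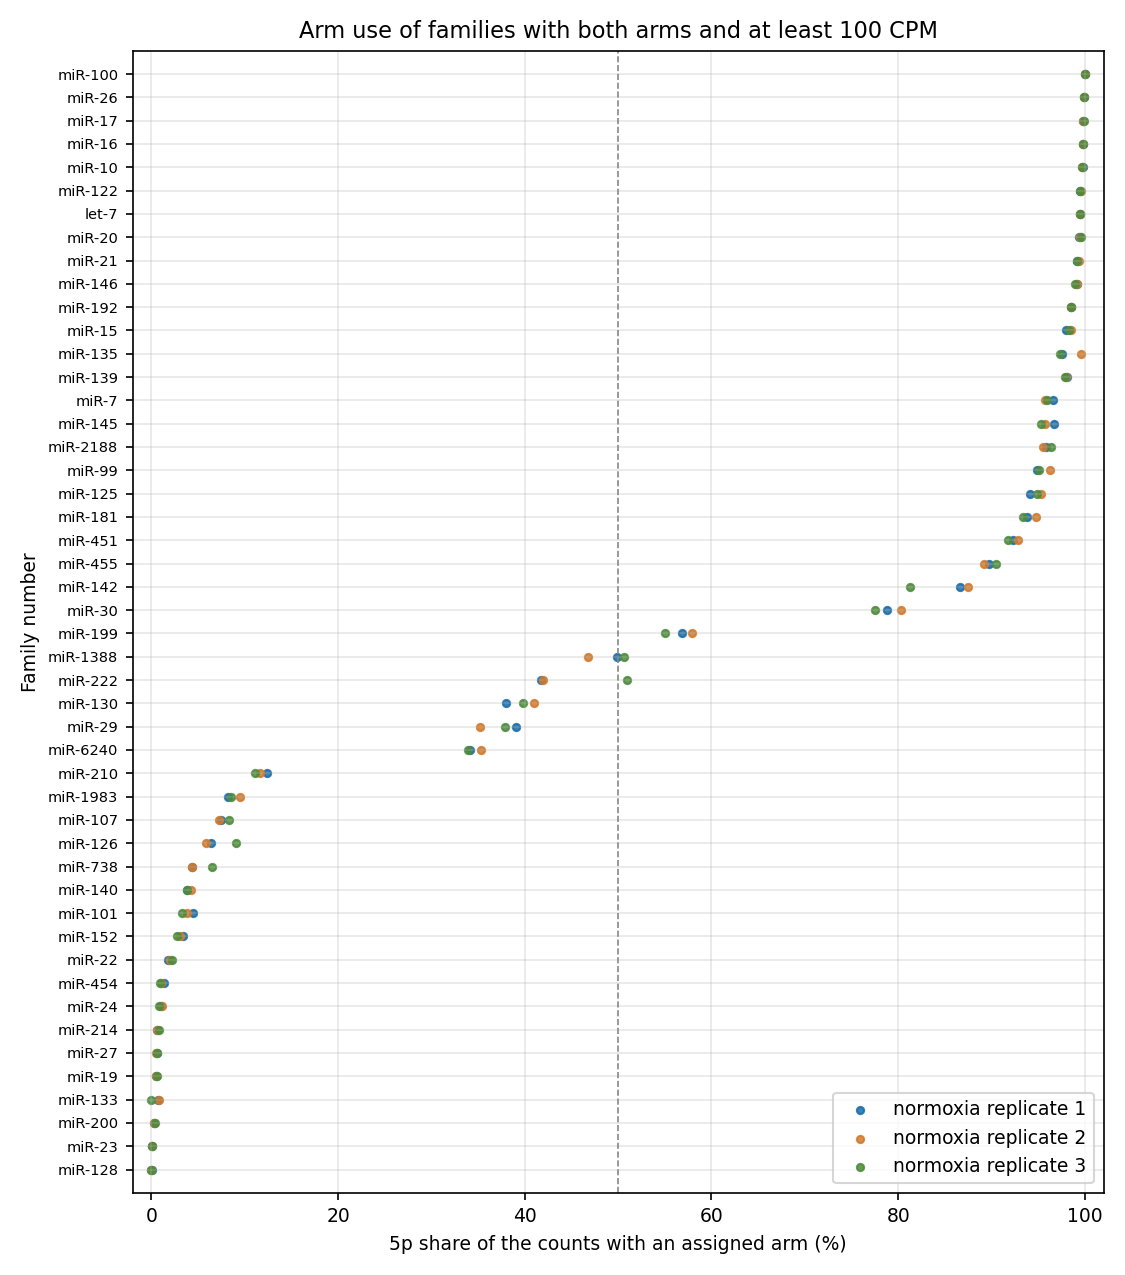
Share of arm-assigned counts on the 5p arm, in percent, for the 48 families with counts under both arm labels and at least 100 CPM, with 1 point per normoxia library. Most families lie near 0 or 100%, a few, such as miR-199 at 56.6% and miR-1388 at 49.1%, lie near the dashed line at 50%, and miR-222 has the widest spread.

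Listed sequences were 18 to 25 nt long. Of the counts, 42.4% ± 0.53 were at 21 nt, 37.1% ± 0.09 at 22 nt and 14.6% ± 0.39 at 23 nt, and the mean length was 21.60 nt in replicate 1, 21.61 in replicate 2 and 21.59 in replicate 3. The entries themselves were mostly 22 nt long (349 of 841). The entry tni-miR-122_R-1, at 24.3% of the counts, is itself 21 nt long. A listed length need not be the length of every read behind it: 11.9% of nonzero values (252 of 2109) had fractions that division by the number of listings cannot give, so a value can sum several reads.

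Among the 841 entries, 400 carried at least 1 fish name, 28 a reptile name but no fish name, 107 mammal names but neither of these, and 306 were predicted. The printed name of an entry with several names follows the same order. The shares of the classes below depend on this rule. Fish-named entries held 95.1% ± 0.29 of the counts, mammal-named entries 4.23% ± 0.27 and reptile-named entries 0.0261% ± 0.0041. The classes differed in length and base composition: 79.7% ± 1.7 of the mammal-named counts were at 19 nt, and their count-weighted GC content was 57.8%, while the fish-named counts were mostly at 21 and 22 nt with 42.4% GC. A first base of T, which is U in RNA, was found in 70.5% ± 0.91 of all counts and 47.2% of entries.

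The mammal-named counts came from few entries. The 3 highest carry the number miR-6240, stood at 26864 ± 2830, 6714 ± 226 and 3526 ± 5.38 CPM, and are shown for their length and base content.
mmu-miR-6240_L-1R-6_1ss19CT: cAAAGCATcgcgaaggctc
mmu-mir-6240-p3_1ss16GT: gCCCAGTGctctgaatgtc
mmu-mir-6240-p5_1ss12TG: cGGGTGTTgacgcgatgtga
Their lengths were 19, 19 and 20 nt and their GC content lay between 57.9% and 60%. By contrast the next entry, hsa-miR-93-5p_2ss1CA13CT (1946 ± 86.9 CPM), has 23 nt and 43.5% GC and carries the seed AAAGTGC of the miR-17 relatives. The last 3 of these entries were picked after their values were seen. Whether the miR-6240 sequences come from miRNA hairpins in this fish was not tested.

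**Figure D4:**
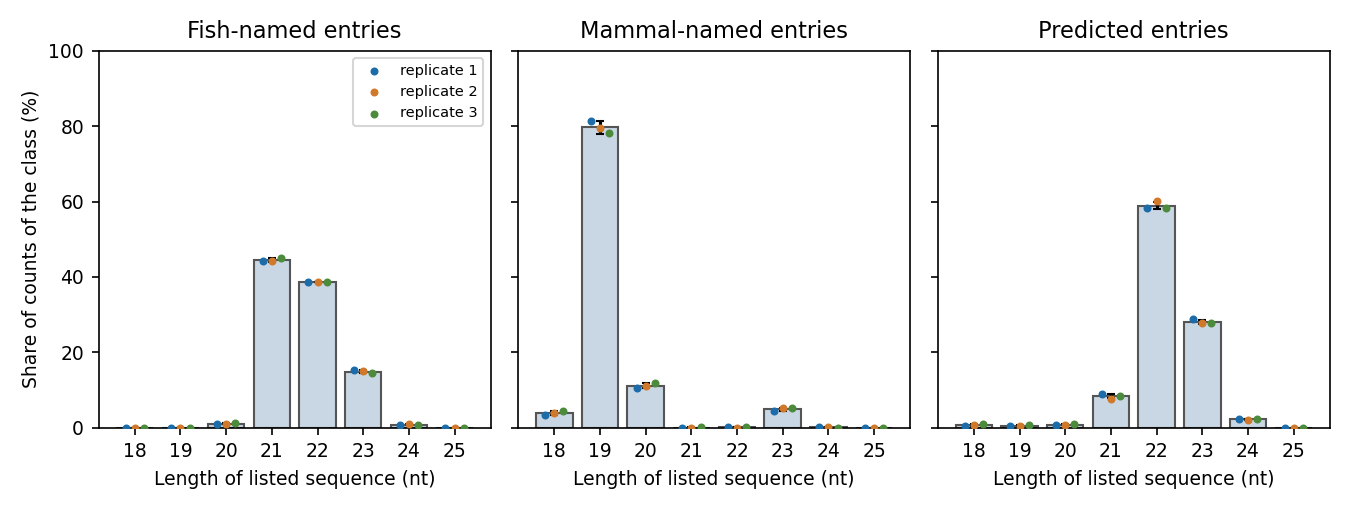
Share of counts, in percent, at each listed length in nt, for fish-named, mammal-named and predicted entries. Bars are means, error bars SD and points the 3 normoxia libraries; fish-named counts lie at 21 to 23 nt and mammal-named counts at 19 nt (79.7%).

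Variants that share a start and differ at the 3′ end formed 73 groups with 165 entries, 58 of them pairs and the largest with 5 entries. Entries were also joined through a shorter form that begins both, so a group can hold entries with other bases near the end. The group of 5 entries holds forms named miR-27a, miR-27b and miR-27e. The 73 groups held 61.9% ± 0.63 of the counts, but within most of them 1 form held nearly everything. In the miR-122 group the 21 nt form held 99.96% and a 24 nt form 95.7 ± 9.5 CPM. The leading forms of the miR-26a-5p, miR-146a, miR-199-5p, let-7a and miR-192a-5p groups held 99.8%, 99.9%, 99.96%, 99.9% and 99.997% of their groups. Only the miR-22a and miR-152 groups among the 8 largest had a second form above 5%, and their sequences show where the ends lie.
dre-miR-22a-3p: aAGCTGCCagctgaagaactgt
oni-miR-22b_R-1: aAGCTGCCagctgaagaact
dre-miR-152_2ss10GA22GT: tCAGTGCAtaacagaactttgt
gmo-miR-152-3p_R-1: tCAGTGCAtaacagaacttt
In each pair the second form has the same seed and ends 2 bases earlier. The short miR-22 form stood at 4045, 3985 and 5243 CPM, which was 6.21%, 6.61% and 8.25% of its group. The short miR-152 form stood at 4053, 4293 and 4740 CPM, which was 17.6%, 18.8% and 18.5% of its group. Both short forms were highest in replicate 3.

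Shifted starts, which change the seed, were rarer. The table lists 28 groups with 39 entries that start elsewhere than the leading form. Of these, 36 entries in 25 groups had counts in the 3 libraries, and they held 7913 CPM or 0.791% of the counts. Nearly all of this was 1 form of miR-122.
tni-miR-122_R-1: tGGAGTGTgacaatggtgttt
dre-miR-122_L+1R-1: aTGGAGTGtgacaatggtgttt
The form dre-miR-122_L+1R-1 starts 1 base earlier and has the seed TGGAGTG. It stood at 8057, 7622 and 7509 CPM, and made up 3.25%, 2.99% and 3.01% of the miR-122 group. Alone it ranked within the first 25 entries of the repertoire. In the next 4 groups, oni-let-7e, miR-26a-5p, miR-199-5p and miR-152, shifted forms stood at 1.15, 4.84, 3.10 and 2.21 CPM, near the low end of what the table lists.

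A further end feature is a final CCA, the triplet that cells add to mature transfer RNAs and that also occurs by chance. It closed 37 entries, or 4.40% of all entries, which together held a mean of 430 CPM. The highest of the 37 was the 22 nt miR-223 entry dre-miR-223_R+1, at a mean of 147 CPM. The 430 CPM are therefore no measure of transfer RNA. Of the 47 entries of 18 nt, 12 ended in CCA, and these 12 held a mean of 206 CPM. The 3 highest of these 12 are shown with the final triplet in capitals and were picked after their values were seen.
hsa-miR-7977_1ss6AG: ttcccggccaacgcaCCA
hsa-miR-4454_L-2_1ss8AG: atccgggtcacggcaCCA
cgr-miR-1260: atcccaccgctgccaCCA
They stood at 32.6, 41.5 and 50.4 CPM, at 30.6, 45.3 and 29.1 CPM, and at 24.9, 27.2 and 52.7 CPM in replicates 1, 2 and 3. The first and the last were highest in replicate 3 and hsa-miR-4454_L-2_1ss8AG in replicate 2. The 12 entries of 18 nt held 0.0159%, 0.0204% and 0.0256% of the counts.

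Predicted entries, whose names start with PC, numbered 306, of which 274 had counts in at least 1 library and 141 in all 3. They held 0.669%, 0.653% and 0.621% of the counts, and the 5 highest made up 57.0% of that. The 2 highest share their start and differ at the 3′ end, and are printed with the other 3.
PC-5p-2540_10513: aTCACTCTtgtttctcttcatct
PC-5p-1147_22613: aTCACTCTtgtttctcttcatt
PC-3p-2797_9587: cCTCAACTctccctgttcctgg
PC-5p-1446_18052: aAGGTCCAacctcacatgtccgt
PC-5p-5000_5140: cCAGGAACagggagcgttgagt
The first averaged 995 ± 69.2 CPM and the second 811 ± 105 CPM, both highest in replicate 2. The others averaged 749 ± 107, 689 ± 145 and 452 ± 39.8 CPM (SD, n = 3). Altogether 12 predicted entries reached 100 CPM, and 37 of the 306 shared a seed with a named entry. The share expected by chance was not worked out, and bases past the seed were not compared. The 37 are therefore no measure of relatedness. Among these 37, PC-5p-1446_18052 shares the seed AGGTCCA with miR-2188, and the miR-2188 level above leaves it out.

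Replicates agreed closely for abundant entries. Over the 567 entries with counts in all 3 libraries, Pearson's r of log2 CPM was 0.991 between replicates 1 and 2, 0.988 between 1 and 3 and 0.988 between 2 and 3, across entries that share library and depth. Chi-square per degree of freedom was 37.3, 52.0 and 47.1 for the same pairs, so no pair agreed within sampling noise. This asks only whether 1 library was deposited more than once. It cannot tell libraries of separate fish from separate libraries of 1 vesicle sample. Chi-square, the binomial intervals above and the counting error below take summed listings as counts. Where the same reads stand in several listings, chi-square is too high, and the intervals and the counting error are too small. Of the 174 entries at 100 CPM or more, the highest library exceeded the lowest by a median of 1.16-fold, 8 entries exceeded 1.5-fold and 1 exceeded 2-fold. Replicate 1 was the highest library for 71, replicate 2 for 47 and replicate 3 for 56 of them.

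The CV fell with level and then stopped falling. Its median was 28.3% for entries of 1 to 10 CPM, 14.7% for 10 to 100, 7.77% for 100 to 1000, 7.34% for 1000 to 10000 and 8.05% at 10000 CPM and over. The spread that counting error alone gives at these levels was 21.3%, 7.06%, 2.36%, 0.788% and 0.254%. The median CV lay above counting error at every level, closest to it for the rarest entries. The common biological coefficient of variation fitted by edgeR was 26.2%, but 14.4% without entries under 10 CPM. Another measure, the square root of the median dispersion that DESeq2 fitted entry by entry, was 16.4%.

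The widest spread among the 174 was that of dre-miR-375_R-1, a miRNA of endocrine pancreas in vertebrates. It stood at 217, 67.0 and 100.5 CPM, with a CV of 61.5%, and averaged 83.7 CPM without replicate 1, which moves it by over 1.5 times. Replicate 1 was also highest for miR-7, at 465, 285 and 281 CPM, but for miR-216 and miR-217 it was not set apart, at 550, 609 and 426 CPM and at 867, 786 and 856 CPM. Among the next entries, dre-miR-204-5p stood at 242, 350 and 200.3 CPM and dre-miR-216a at 253, 284 and 161 CPM, both highest in replicate 2. Entries highest in replicate 3 were mmu-mir-1983-p3_1ss2GA_1 at 124.6, 157 and 210.0 CPM, oni-miR-126 of the 5p arm at 738, 764 and 1148 CPM, mmu-miR-6239_R-2_1ss6TG at 178, 236 and 280 CPM and dre-miR-223_R+1 at 162, 113 and 165 CPM. Those highest in replicate 1 were ccr-mir-738-p3_1 at 227, 199 and 134 CPM, the epidermal dre-miR-203a-3p_1ss22GT at 140.2, 86.8 and 114 CPM and the predicted PC-5p-1446_18052 at 856, 617 and 594 CPM. No single library was the extreme one for all 10.

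The 5 steadiest entries at 100 CPM or more had CVs of 0.153% to 1.23%. The steadiest was mmu-mir-6240-p5_1ss12TG at 3522, 3523 and 3532 CPM, followed by oni-miR-27b, whose levels are given above, and ssa-miR-192a-3p_1ss11AC at 282, 280.3 and 285 CPM. The other 2 were dre-miR-16c-5p at 616 ± 7.1 CPM and dre-miR-30e-3p at 6600 ± 81.5 CPM (SD, n = 3). All but dre-miR-30e-3p varied by less than the counting error at their level. Such low values were few, 6 of 101 entries of 100 to 1000 CPM and 2 of 52 entries of 1000 to 10000 CPM.

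Library composition moved slightly with base content and length. Over the 324 entries of at least 10 CPM, the log2 deviation of a library from the mean of the 3 changed by 0.046, -0.026 and -0.020 per 10 percentage points of GC in replicates 1, 2 and 3, and by 0.040, 0.012 and -0.053 per nt of length. These fits took up 0.0845, 0.0426 and 0.0974 of the variance in replicates 1, 2 and 3. At 19 nt the share of counts was 3.71%, 3.32% and 3.16%, which ran against the length slopes of replicates 1 and 3. Most of this share was 1 entry, mmu-miR-6240_L-1R-6_1ss19CT, at a mean of 2.69%, so it does not illustrate the fits over entries. The part of these trends in any single level was not tested.

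At the low end, 142 entries had counts in only 1 library, 84 of them in replicate 1, the deepest, 28 in replicate 2 and 30 in replicate 3. The 3 highest were mmu-mir-1983-p3_1ss9GA with 17 counts in replicate 3, PC-3p-157268_12 with 17 counts in replicate 2 and dre-miR-24b-5p_L-1 with 21 counts in replicate 1. The other libraries listed each of these at 0. The table listed 48 further entries with no counts in any of the 3 libraries.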

How the data were processed

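Small RNA of vesicles from normoxic catfish liver was sequenced in 3 libraries (NovaSeq X Plus, reads cut to single ends), per the labels' protocols. The authors deposited 1 table of 1088 rows with 942 names, 874 sequences and an estimated count per library, not scaled to depth. Aligner, caller, genome build and filters: not given in the sources used here. Listings of 1 sequence were summed, and in 18 cases different sequences of 1 precursor with identical values in every library were joined, which gave 841 entries. CPM was computed on library totals. Arms came from names and from seeds shared with a named arm of the family. Variants were compared over at least 16 bases, with starts up to 3 bases apart. Dispersion was estimated with edgeR 4.0.16 and DESeq2 1.42.0 in R 4.3.3 on rounded counts, and functions were tested on simulated data. Other steps used Python 3.11.15. No test between groups was made.

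Members, lists and rules were chosen with earlier results of these data known. The text names the 20 highest entries, the highest of each list, the 5 highest predicted, the 10 highest and 5 lowest CVs at 100 CPM or more, the 3 highest in 1 library, 15 families, 18 arm families, and 8 and 5 groups of variants. Other names are said to be picked later or serve as list members. Of 46 name pairs, the length suffix matched the sequence in 46 and the start in 39.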

Additional observations from a re-analysis of the deposited data

How the results depend on the processing

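Depth was 5572737 to 8497217 counts per library. For entries of 1 to 10 CPM the median counting error was 21.3%, beside a median CV of 28.3%. At 10000 CPM and over these values were 0.254% and 8.05%. Counting each sequence at its listed value once moved 44 of the 50 named levels. What limits the entries at each level was not tested. No paired analysis was possible because the 3 libraries form 1 group and no test was made. Across settings, 126 summary values stayed within 1 SD of the reported value (counts within 1.5 times) and 29 did not. Scaling by TMM, pooling and thinning to the shallowest library moved none of these values. Many of the 126 could not have moved. Leaving out 1 of 3 libraries cannot move a mean over libraries by 1 SD. TMM scales a whole library by 1 factor (0.991 to 1.009). Such a factor cannot change diversity, arm share, mean length or the number of entries with counts. The tally of 126 against 29 is therefore no measure of stability. Thinning did not apply the lower limit of the listed counts again, and entries with counts stayed at 725, 643 and 643. It therefore cannot show how depth acts on detection. Pooling gives no CV, dispersion or count of entries in all libraries, and the predicted share has no value without predicted entries.

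With each sequence at its listed value once, the share of the first entry was 29.1%, of the first 10 entries 67.1%, of the first family 30.1% and of 5p arms 73.6%, Shannon diversity 4.74, mean length 21.57 nt, the share at 22 nt 36.4% and the predicted share 0.682%. With every sequence kept apart, diversity was 5.03. Without entries under 10 CPM, diversity was 5.00, entries in all 3 libraries numbered 324, the predicted share was 0.611%, the share in groups of 3′ variants 57.8% and the biological CV 14.4%. Without predicted entries, diversity was 4.96, the share at 22 nt 36.97% and the biological CV 17.6%. The median dispersion fitted entry by entry with DESeq2, over all entries, gave 16.4%, which is another measure than the common value of edgeR. Leaving out 1 library at a time gave a median CV of 7.08% to 9.13% (10.4% with all 3, above 10 CPM) and a biological CV of 19.9% without replicate 3 to 29.4% without replicate 2. The cause of these moves was not tested.

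Arms from names only gave a 5p share of 59.3%. Grouping by seed gave 24.3% for the first family and 71.4% for the first 10. In settings chosen after seeing the data, textbook arms for 14 more families gave a 5p share of 69.6% and the miR-122 family left out gave 65.5%. Without mammal-named entries the first family held 26.3% and 22 nt 38.7%. Of the 50 named levels, 44 moved with values listed once (0.171 to 1.20 times) and none by more than 1 SD with TMM. None did when 1 library was left out, but leaving out 1 of 3 libraries cannot move a mean by 1 SD. The level of dre-miR-375_R-1 fell to 0.653 of its value without replicate 1. Of 18 named arm shares, 8 moved with names only.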
